A study of Homo sapiens with 9 samples.

Results

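Of the 9 RNA-seq libraries of this series 6 carry RNA that was pulled down with an axon guidance receptor, 3 with DCC (DCC-IP) and 3 with Nrp1 (Nrp1-IP), and these 6 were compared here after the transcript of MAP1B had been taken out of the count tables. MAP1B, which encodes a microtubule-associated protein of neurons, was removed together with the summary lines of the counting tool before library sizes were computed, which kept 42784 of the 42785 genes. The question was which other mRNAs, by function and family, differed between the receptors. The cells were SH-SY5Y, a human neuroblastoma line used as a neuron model, grown without treatment in DMEM high glucose medium with FBS in all groups. Lysate was incubated with magnetic beads coupled to a mouse antibody against DCC or a rabbit antibody against Nrp1. The remaining 3 libraries (Input) hold whole lysate and are given beside the pulldowns as a background level. Receptor and antibody, including its species, cannot be told apart in this design, and no library from a control antibody was analysed here. The study's methods describe its experiments in general as run in independent biological replicates. The labels do not say so for these libraries, and p-values measure the spread between them.

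DCC is the receptor through which Netrin-1 attracts growing axons, and Nrp1 (Neuropilin-1) is the receptor subunit that binds the repellent Sema3A. Both cues are known to switch on protein synthesis inside the growth cone, which draws on mRNAs stored in the axon. RNA immunoprecipitation recovers transcripts that come down with a protein, directly or through ribosomes and RNA-binding proteins, and reads the bound RNA relative to the other RNA of the same pulldown.

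Counts on genes without MAP1B were 5295098 to 6188838 in DCC-IP and 9474090 to 10764537 in Nrp1-IP, since MAP1B had taken 47.4% ± 6.20 (SD, n = 3) of the counts in DCC-IP and 2.1% ± 0.460 (SD, n = 3) in Nrp1-IP. A count of 3, the floor used for a gene at 0, gives CPM (a gene's count relative to the library total, here unscaled) of 0.485 to 0.567 for DCC-IP and of 0.279 to 0.317 for Nrp1-IP, which covers counting error only. CPM values below are scaled with TMM factors over all 9 libraries without MAP1B, whereas fold changes come from the fit on the 6 pulldowns. The replicates were looser in DCC-IP, where Spearman's rank correlation between libraries over the tested genes was 0.673 to 0.732, than in Nrp1-IP, where it was 0.852 to 0.862. Between receptors the correlation was 0.624 to 0.785. The receptor transcripts themselves were scarce. DCC mRNA had 0 counts in all 9 libraries, which allows no more than the floor, and NRP1 mRNA reached 0, 2.54 and 1.96 CPM in DCC-IP, against 6.42, 9.34 and 3.37 CPM in Nrp1-IP and 34.3, 48.6 and 36.9 CPM in Input. The neuroblastoma markers were partly present. ISL1, a noradrenergic lineage factor, had 10742 to 35114 counts in the pulldowns, 7 of 22 markers reached at least 10 counts in each of the 6 libraries, and TH, the rate-limiting enzyme of catecholamine synthesis, had 0 counts in every library. Their summed share of counts was 0.319% to 0.660% in DCC-IP, 0.134% to 0.161% in Nrp1-IP and 0.0286% to 0.0563% in Input, most of it ISL1, and 0 of the 9 tested were called by edgeR (2 at p under 0.05 before adjustment, and 1 by DESeq2). The 9 glial markers in the files were at 0 in all libraries, of 10 blood cell markers 9 were at 0 in the 6 pulldowns, and 11 of 20 mesenchymal and Schwann cell markers were. The mesenchymal TWIST1, however, had 811 to 2906 counts in the pulldowns and 8288 to 12083 counts in Input. WWTR1 had 365 to 823 counts in the pulldowns. This list took 0.0922% to 0.151% of Input counts, more than the neuroblastoma markers did there. In the pulldowns it took less than they did, 0.0463% to 0.0622% in DCC-IP and 0.0129% to 0.0142% in Nrp1-IP.

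With MAP1B removed, 232 genes passed the test in the Nrp1-IP direction (3.66% of 6343 tested) and 41 in the DCC-IP direction (0.646%), 273 in all (4.30%), by edgeR's quasi-likelihood test at a Benjamini-Hochberg adjusted p under 0.05. The median log2 fold change, Nrp1-IP over DCC-IP, was 2.51 among the first and -2.54 among the second, against -0.02 over all genes tested. No called gene had a fold change smaller than 1.21 on the log2 scale in the Nrp1-IP direction or -1.19 in the DCC-IP direction. In each of the 273 the libraries of the receptors did not overlap, which was also true of 26.7% of all tested genes (15.4% with Nrp1-IP above and 11.3% with DCC-IP above). Calls were concentrated in abundant transcripts. Of 228 genes whose higher receptor mean exceeded 1000 CPM, 115 (50.4%) were called on the Nrp1-IP side and 14 (6.14%) on the DCC-IP side, whereas of 2945 genes at 1 to 10 CPM the counts were 5 and 0. Before adjustment, 598 genes in the Nrp1-IP direction and 423 in the DCC-IP direction had p under 0.05, and DESeq2, with its own scaling, called 390 and 313. Leaving out 1 library moved the counts strongly, to 131 and 68 without DCC-IP replicate 2, to 126 and 8 without Nrp1-IP replicate 1, to 108 and 12 without Nrp1-IP replicate 2, to 137 and 10 without Nrp1-IP replicate 3 and to 226 and 26 without DCC-IP replicate 1. In all 6 such fits 89 of the 232 and 8 of the 41 were called, and no gene of the 273 changed direction.

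**Figure D1:**
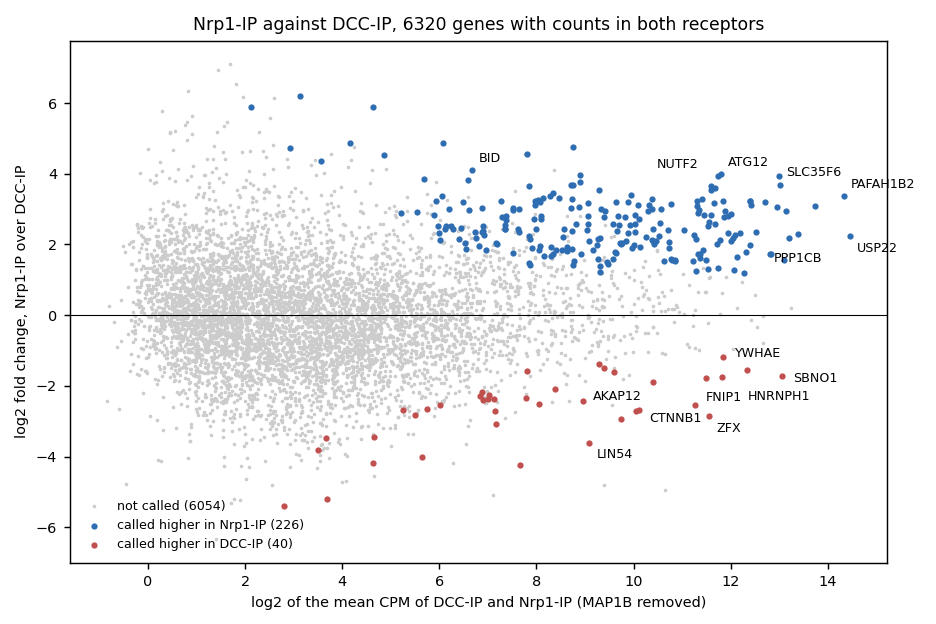
Log2 fold change, Nrp1-IP over DCC-IP, against the log2 of the mean CPM of both receptors for 6320 tested genes (grey, not called; blue, 226 called higher in Nrp1-IP; red, 40 called higher in DCC-IP). The other 23 tested genes, 7 of them called, were at 0 in every library of a receptor and are not drawn; blue points crowd the right side, and the most abundant red points are SBNO1, HNRNPH1 and YWHAE.

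The balance between the directions depended on how the libraries were scaled. With MAP1B kept, 165 genes were called on the Nrp1-IP side and 70 on the DCC-IP side, MAP1B among them, so the Nrp1-IP share of calls was 70.2% in place of 85.0%. The median log2 fold change of all genes was then -0.27, a shift of 0.25. All 41 DCC-IP calls and 163 Nrp1-IP calls were made both ways, 69 Nrp1-IP calls were made only without MAP1B, and 28 DCC-IP calls besides MAP1B only with it. The genes TOR1AIP2, RBBP5 and BRD3 were among the 69, with adjusted p of 0.00876, 0.00887 and 0.00941 without MAP1B and 0.0672, 0.058 and 0.0609 with it. OGT, the enzyme that adds O-GlcNAc to proteins, and the beta-spectrin SPTBN1 were among the 28, with adjusted p of 0.0763 and 0.0611 without MAP1B and 0.037 and 0.0386 with it. SPTBN1 stood at 428, 159 and 3323 CPM in DCC-IP against 36.2, 29.6 and 76.9 CPM in Nrp1-IP, so that 1 DCC-IP library carried most of its level. In Input it was at 95.3, 46.7 and 649 CPM, so that replicate 3 was the highest in each group. The shift followed the library to which TMM scales the others: DCC-IP replicate 2, which edgeR picked without MAP1B, gave 232 and 41, and DCC-IP replicate 1 gave 164 and 69 on the same table. Over the 6 possible references the counts ranged from 164 to 232 and from 38 to 69. With library sizes alone and no scaling factors, the median of all genes was -1.0 and the counts were 106 and 337, so that 23.9% of calls lay on the Nrp1-IP side. The 106 were all among the 232, and all 41 DCC-IP calls were made there too. The direction of a gene family below is therefore given relative to the median of all tested genes.

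**Figure D2:**
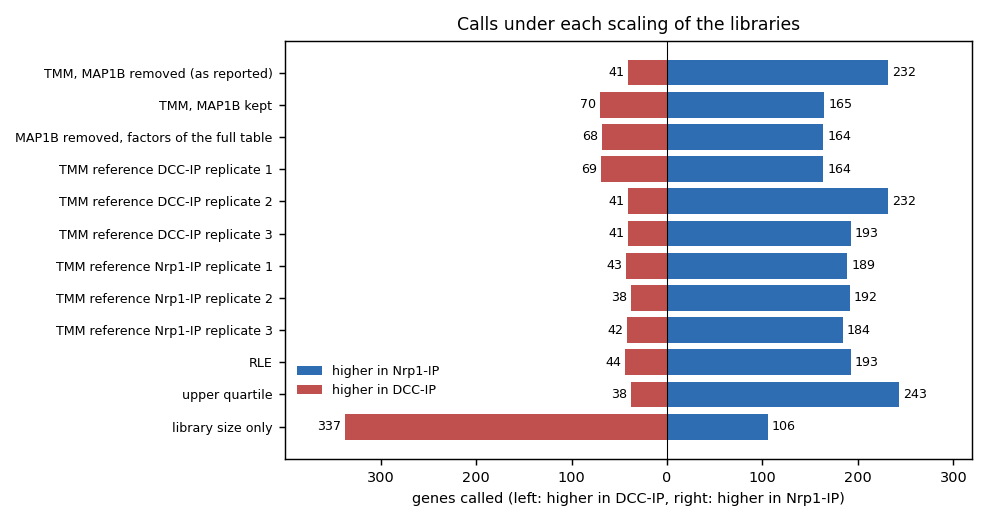
Number of genes called higher in DCC-IP (red, left) and in Nrp1-IP (blue, right) under each scaling of the 6 libraries. Nrp1-IP calls outnumber DCC-IP calls under every scaling drawn except library size only, where they are 106 against 337.

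The 12 mRNAs with the smallest p on the Nrp1-IP side were called in each of the 6 leave-one-out fits and also with library sizes alone. ATG12, a ubiquitin-like protein that is conjugated to ATG5 when autophagosomes form, stood at 596, 432 and 366 CPM in DCC-IP, against 6416, 7108 and 6499 CPM in Nrp1-IP and 3229.7, 2642 and 1769 CPM in Input (log2 fold change 4.01, SE 0.24, adjusted p = 0.000341). NUTF2, which carries the GTPase Ran into the nucleus, had 569.8, 396 and 409 CPM in DCC-IP against 5825, 7207 and 6054 CPM in Nrp1-IP (log2 fold change 3.95, SE 0.25, adjusted p = 0.000341). For both, the lowest Nrp1-IP library was about an order of magnitude above the highest DCC-IP library. PAFAH1B2 was the most abundant of the 12, with 4061, 4143 and 3442 CPM in DCC-IP, against 39867, 37485 and 34199 CPM in Nrp1-IP and 47192, 37156 and 26102 CPM in Input (log2 fold change 3.38, SE 0.22, adjusted p = 0.000341). Its product is a catalytic subunit of the acetylhydrolase that binds LIS1, the dynein regulator. SSU72, a phosphatase of the tail of RNA polymerase II, was at 710.4, 397 and 408 CPM in DCC-IP against 4868, 6317 and 5777 CPM in Nrp1-IP (log2 fold change 3.67, adjusted p = 0.000573). CACUL1, a cullin-domain protein linked to CDK2, was at 1620.2, 1233 and 925 CPM in DCC-IP against 9246, 10960.5 and 8855 CPM in Nrp1-IP (log2 fold change 3.11, adjusted p = 0.000651). The Nrp1-IP libraries of these genes spread by far less than the gap between the receptors, which picking genes by smallest p favours. The rest of the 12 were SLC35F6, SGPL1, GLTP, PARVB, RNFT2 and the clone-named transcripts AC016747.3 and RP11-565F19.2, with log2 fold changes of 2.98 to 4.75. By level, the most abundant Nrp1-IP calls were USP22, PAFAH1B2, TMEM33, RP11-746M1.1 and PPP1CB. USP22 and RP11-746M1.1 ranked the 9 libraries in the same order, and whether they share reads was not tested. USP22, the deubiquitinase of the SAGA coactivator, was at 9988, 6041 and 9326 CPM in DCC-IP against 35186, 39318 and 34936 CPM in Nrp1-IP, and PPP1CB, a catalytic subunit of protein phosphatase 1, at 4322, 3512 and 3209 CPM in DCC-IP against 16129.9, 14965 and 14059.9 CPM in Nrp1-IP.

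**Figure D3:**
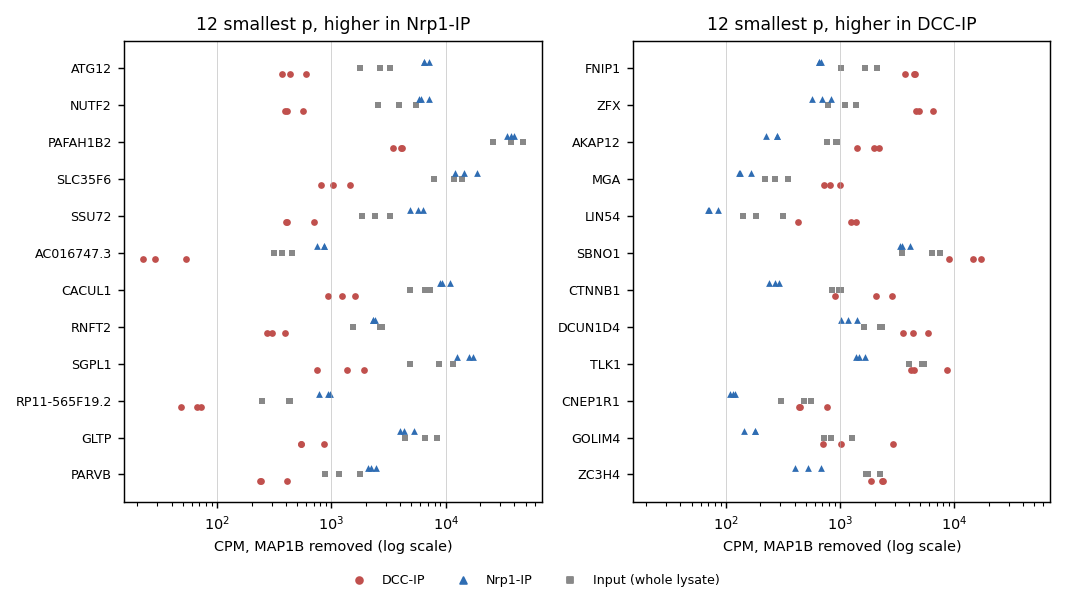
CPM of each library on a log axis for the 12 lowest-p genes of each side (red circles, DCC-IP; blue triangles, Nrp1-IP; grey squares, Input; 3 libraries each). The receptors do not overlap in any of the 24 genes, as in every called gene. On the left Input lies near or above Nrp1-IP for PAFAH1B2 and GLTP, and on the right it lies between the receptors for MGA and LIN54.

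The called genes were set beside their level in whole lysate. The median level of the 232 was 238 CPM in DCC-IP, against 990 CPM in Nrp1-IP and 1006 CPM in Input, and the Input mean lay between the receptors for 152 of them, above both for 80 and below both for 0. The 41 DCC-IP calls had medians of 347 CPM in DCC-IP, against 42.5 CPM in Nrp1-IP and 102 CPM in Input, with Input between the receptors for 30, above both for 5 and below both for 6. In counts, the 232 genes took 61.3% to 63.2% of each Nrp1-IP library, 21.3% to 24.0% of each DCC-IP library and 37.1% to 44.1% of each Input library. The 41 genes took 9.82% to 11.1% of DCC-IP, 1.38% to 1.50% of Nrp1-IP and 5.08% to 5.65% of Input. By RefSeq gene type, 198 of the 232 and 37 of the 41 were protein-coding.

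**Figure D4:**
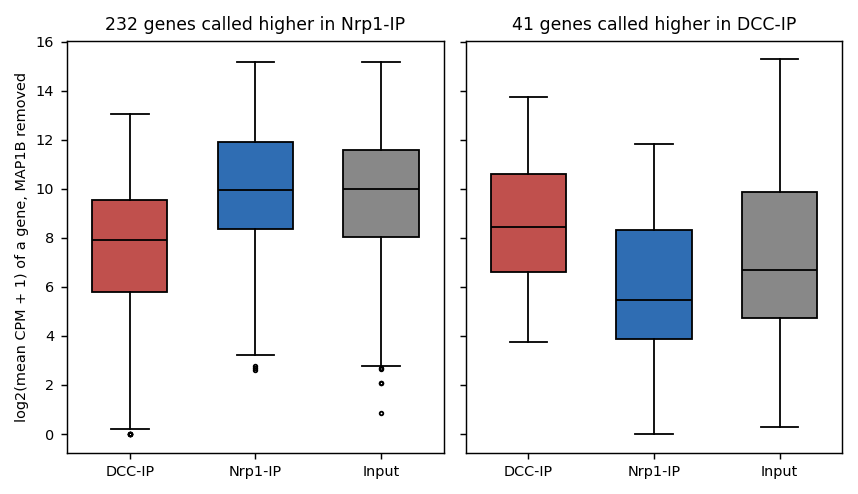
Box plots of log2(mean CPM + 1) per gene in DCC-IP, Nrp1-IP and Input for the 232 genes called higher in Nrp1-IP and the 41 called higher in DCC-IP (line, median; box, quartiles; whiskers, most extreme gene within 1.5 box lengths). The Nrp1-IP and Input boxes sit at similar heights on the left, while on the right Input lies between the receptors.

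Gene families are read below against the share of all tested genes called, 3.66% in the Nrp1-IP direction and 0.646% in the DCC-IP direction. These shares depend on level. In the Nrp1-IP direction 0.170% were called where the higher receptor mean was 1 to 10 CPM, and 50.4% where it exceeded 1000 CPM. The lists were not matched to all genes by level, so the part of level in their shares was not tested. Since 85.0% of all calls lay on the Nrp1-IP side and few genes were called on the other, 0 DCC-IP calls in a short list is no result about that list, and the counts at p under 0.05 before adjustment and by DESeq2 are given beside it. The lists were chosen with earlier results of these data known, so a share above that of all genes describes a list and is not a test of it.

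Both lists of the secretory pathway held more Nrp1-IP than DCC-IP calls, as did the tested genes as a whole, with 85.0% of calls on the Nrp1-IP side. The shares called higher in Nrp1-IP were 15.8% and 14.3%, against 3.66% of all genes. In the DCC-IP direction they were 0 and 2.86%, against 0.646%. Among 19 tested genes of the signal recognition particle and the ER translocon, which bring nascent chains to the ER, 3 were called higher in Nrp1-IP and 0 in DCC-IP (1 in DCC-IP before adjustment, and 1 by DESeq2). SRPRB, the membrane-bound subunit of the SRP receptor, stood at 325, 304 and 508 CPM in DCC-IP against 2336, 3897 and 3109 CPM in Nrp1-IP (log2 fold change 3.13, SE 0.40, adjusted p = 0.00337), and the translocon-associated SSR1 at 281, 256 and 193 CPM in DCC-IP against 1130.1, 1003 and 819 CPM in Nrp1-IP (log2 fold change 2.16, adjusted p = 0.00413). SRP9 was the third, and it lost its call without DCC-IP replicate 1 (adjusted p = 0.0549), Nrp1-IP replicate 1 (0.122) or Nrp1-IP replicate 2 (0.106). For transport from the ER to the Golgi, 5 of 35 were called higher in Nrp1-IP and 1 in DCC-IP (8 and 5 before adjustment, and 7 and 4 by DESeq2). The COPII GTPase SAR1A had 3357, 1322 and 1200.4 CPM in DCC-IP against 11871, 15018 and 14734 CPM in Nrp1-IP (log2 fold change 3.06, SE 0.33, adjusted p = 0.00162). TRAPPC2, of the TRAPP tethering complex, and the SNARE SEC22B had log2 fold changes of 3.08 and 3.28, and the 1 DCC-IP call was the Golgi membrane protein GOLIM4. The medians of these lists lay 0.54 and 0.36 above that of all genes on the log2 scale, and 0.44 to 0.58 and 0.24 to 0.39 above it over 5 scalings.

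Enzymes of glycan and lipid metabolism and membrane transporters gave 6 of 30, 7 of 37 and 10 of 102 calls higher in Nrp1-IP, against 3.66% of all genes. Several of these calls held in few of the 6 leave-one-out fits. Among the glycan enzymes DHDDS held in 2, FUT1 in 1 and PIGV in none. Among the lipid genes LCLAT1 held in 3, CPT1A in 1 and FITM2 in none. Among the transporters SLC35F1 held in 3, SLC29A4 and SLC25A45 in 2 each and SLC44A1 in none. Of the 30 tested genes of GPI anchor synthesis and glycosylation 0 were called in DCC-IP (4 before adjustment, and 3 by DESeq2), and the 6 in Nrp1-IP included COLGALT1, which glycosylates collagen, and the galactosyltransferase B4GALT1. B4GALT1 was at 119.5, 39.5 and 56.3 CPM in DCC-IP against 459, 846 and 1054 CPM in Nrp1-IP (log2 fold change 3.68, SE 0.48, adjusted p = 0.00364). Of the 37 lipid metabolism genes 0 were called in DCC-IP (12 and 3 before adjustment, and 11 and 3 by DESeq2). SGPL1, the lyase that breaks down sphingosine 1-phosphate, stood at 1931, 1373 and 748 CPM in DCC-IP, against 17525, 15891 and 12443 CPM in Nrp1-IP and 11549.9, 8807 and 4883 CPM in Input (log2 fold change 3.69, SE 0.31, adjusted p = 0.000848). The glycolipid transfer protein GLTP was at 860.3, 542 and 537 CPM in DCC-IP against 4009, 5253 and 4333 CPM in Nrp1-IP, and the fatty acid elongase ELOVL6 at 669, 652 and 344 CPM in DCC-IP against 5089.7, 5542 and 4058 CPM in Nrp1-IP. Neither overlapped between the receptors, which was true of every called gene. The 60 listed lipid genes in the files took 2.85% to 2.98% of counts in Nrp1-IP and 0.959% to 1.12% in DCC-IP, of which SGPL1 alone gave 1.24% to 1.58% and 0.142% to 0.266%. The 102 were solute carriers, a large family of membrane transporters, with 0 calls in DCC-IP (21 and 3 before adjustment, and 14 and 2 by DESeq2). SLC35F6 had 1466, 1043 and 818 CPM in DCC-IP against 12150.5, 18805 and 14406 CPM in Nrp1-IP (log2 fold change 3.95, adjusted p = 0.000524), and SLC35F2 and the zinc transporter SLC30A7 had log2 fold changes of 2.84 and 2.54. The median of the solute carriers was 0.47 above that of all genes, and 0.47 to 0.58 above it over the 5 scalings.

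Of 20 RAB and 26 other small GTPases 2 and 3 were called higher in Nrp1-IP (5 and 7 before adjustment, and 3 and 4 by DESeq2), against 3.66% of all genes. In the DCC-IP direction 0 passed in either list by any of these tests. Of the 20 RAB GTPases, which mark membrane compartments for traffic, RAB33B and RAB2B were called, at 206, 193 and 79.3 CPM in DCC-IP against 1274, 1199 and 905 CPM in Nrp1-IP and 40.0, 67.9 and 63.3 CPM in DCC-IP against 590.1, 743 and 450.0 CPM in Nrp1-IP (log2 fold change 3.00, adjusted p = 0.0035, and 3.46, adjusted p = 0.00385). Of the 26 others, SAR1A, RHOF and RAP2C were called. RHOF and RAP2C were not called with MAP1B kept (adjusted p = 0.062 and 0.0819), RHOF held in 1 of 6 leave-one-out fits, with adjusted p of 0.0769 to 0.149 in the other 5, and RAP2C in none.

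Genes of autophagy and cell death were called in the Nrp1-IP direction in 22.7% and 23.8% of those tested, against 3.66% of all genes. Of 22 autophagy genes 5 were higher by the test in Nrp1-IP and 0 in DCC-IP (4 in DCC-IP before adjustment, and 3 by DESeq2). They were ATG12, PINK1, TMEM41B, NCOA4 and WIPI1, of which TMEM41B was called in none of the 6 leave-one-out fits and NCOA4 and WIPI1 in 1 each. ATG12 carried 0.580% to 0.646% of all Nrp1-IP counts and the rest of the list 0.133% to 0.154%, while in DCC-IP the rest carried 0.174% to 0.230%, so that the list's higher share in Nrp1-IP came from 1 gene. PINK1, the kinase that flags damaged mitochondria, had 74.7, 27.5 and 38.1 CPM in DCC-IP against 249, 351 and 253 CPM in Nrp1-IP. It lost its call without DCC-IP replicate 2 (adjusted p = 0.055) or Nrp1-IP replicate 2 (0.0568), and because the strand setting of the counting is not given its reads cannot be told apart from those of its antisense partner. Of 21 apoptosis genes 5 were higher by the test in Nrp1-IP and 0 in DCC-IP (2 in DCC-IP before adjustment, and 2 by DESeq2). CASP2, an initiator caspase, stood at 3185, 2304 and 1424 CPM in DCC-IP against 14890.1, 18566 and 13407 CPM in Nrp1-IP (log2 fold change 2.95, SE 0.28, adjusted p = 0.00097). BID, which relays death receptor signals to mitochondria, was far lower in level, at 9.01, 17.9 and 8.17 CPM in DCC-IP against 269.7, 136 and 170.2 CPM in Nrp1-IP (log2 fold change 4.12, SE 0.56, adjusted p = 0.00446). DFFA, the inhibitor of the apoptotic nuclease, and BIRC5, or survivin, which also belongs to the chromosomal passenger complex, had log2 fold changes of 2.99 and 2.11, and BIRC5 was not called with library sizes alone (adjusted p = 0.065). The last apoptosis call, BAG4, held in 3 of 6 leave-one-out fits.

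Of the ubiquitin enzymes edgeR called 4 of 47 RING finger and TRIM ligases, 2 of 19 conjugating enzymes and 1 of 26 ubiquitin-specific proteases higher in Nrp1-IP, the last at about the 3.66% of all genes, and 0 in DCC-IP for each. In the DCC-IP direction 0, 2 and 2 of them passed before adjustment, and 0, 2 and 1 by DESeq2. Of the Nrp1-IP calls, RNF169 held in 3 of 6 leave-one-out fits, RNF152 and UBE2G1 in 2 each and TRIM35 in none. RNF168, a ligase of the DNA damage response, had 1423, 1128 and 582 CPM in DCC-IP against 5293, 6002 and 5145 CPM in Nrp1-IP (log2 fold change 2.58, SE 0.30, adjusted p = 0.00202). The conjugating enzyme UBE2D4 had 1229, 676 and 326 CPM in DCC-IP against 6429, 6500.1 and 4182 CPM in Nrp1-IP (log2 fold change 3.17, adjusted p = 0.00329). Of 24 proteasome subunits and assembly factors 1 was called higher in Nrp1-IP (4.17%, near the 3.66% of all genes). This was the assembly chaperone PSMG3 (log2 fold change 1.53, adjusted p = 0.00887), which held in 3 of 6 leave-one-out fits. Before adjustment the proteasome list had 2 in the Nrp1-IP direction and 3 in the DCC-IP direction, and by DESeq2 2 and 1.

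The next list held genes that act on mTORC1, the kinase complex that couples nutrients to translation, or downstream of it. Of 21 tested, 1 was called higher in Nrp1-IP and 3 in DCC-IP (1 and 4 before adjustment, and 1 and 3 by DESeq2). EIF4EBP2 and EIF4E act downstream of the complex and are counted again among the translation factors below. EIF4EBP2, which blocks the cap-binding protein EIF4E, was called higher in Nrp1-IP, at 1312, 619 and 1297 CPM in DCC-IP against 6797, 7949 and 6653 CPM in Nrp1-IP (log2 fold change 2.87, SE 0.34, adjusted p = 0.00217). EIF4E itself was called higher in DCC-IP, at 212, 128 and 308 CPM in DCC-IP against 46.6, 42.9 and 38.1 CPM in Nrp1-IP (log2 fold change -2.25, SE 0.47, adjusted p = 0.0335). The EIF4E call held in 2 of 6 leave-one-out fits and was lost without DCC-IP replicate 3 (adjusted p = 0.0503) or any 1 of the Nrp1-IP libraries (0.168 to 0.188). FNIP1, a partner of folliculin, had the smallest p on the DCC-IP side, and is described with it. KPTN, of the KICSTOR complex, was the third, with 418, 98 and 67 counts in DCC-IP and 4, 5 and 6 counts in Nrp1-IP. Its call held in 2 of 6 leave-one-out fits and was not made with the replicate block. It was lost without DCC-IP replicate 1 (adjusted p = 0.0744) or any 1 of the Nrp1-IP libraries (0.171 to 0.217).

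Translation factors gave 5 calls higher in Nrp1-IP and 1 in DCC-IP among 44, but 7 and 5 before adjustment and 5 in each direction by DESeq2. EIF2S1, the alpha subunit of eIF2 whose phosphorylation slows initiation, was at 968, 493 and 569 CPM in DCC-IP against 4274, 4917 and 4083 CPM in Nrp1-IP (log2 fold change 2.89, SE 0.27, adjusted p = 0.00097). The median of the 44 lay 0.20 below that of all genes. EIF2S3 and EIF3M, among the 5 called higher in Nrp1-IP, held in 1 of 6 leave-one-out fits each. Of 34 tested cytosolic ribosomal protein genes 5 were called higher in Nrp1-IP (RPS20, RPS15A, RPL15 and RPL38 among them) and 1 in DCC-IP (RPS13), but 5 and 8 before adjustment and 5 and 7 by DESeq2, while the median of the 34 was 0.84 below that of all genes, and 0.80 to 0.84 below it over the 5 scalings. RPS20 stood at 169, 101 and 85.8 CPM in DCC-IP, against 989, 901 and 947 CPM in Nrp1-IP and 1277, 738 and 650.4 CPM in Input (log2 fold change 3.18, SE 0.30, adjusted p = 0.00097). RPS15A held in 2 and RPL15 and RPL38 in 1 of 6 leave-one-out fits. RPS13 rested on 129, 31 and 226 counts in DCC-IP and 1, 3 and 4 counts in Nrp1-IP, and its call held in 1 of 6 leave-one-out fits, with adjusted p of 0.0619 to 0.258 in the other 5. The 90 cytosolic ribosomal protein genes in the files took only 0.126% to 0.143% of counts in DCC-IP, 0.196% to 0.270% in Nrp1-IP and 0.201% to 0.232% in Input. Of 27 mitochondrial ribosomal proteins 2 were called higher in Nrp1-IP (MRPS16 and MRPS17) and 0 in DCC-IP, but 2 and 7 passed before adjustment and 2 and 5 by DESeq2, and the median was 0.85 below that of all genes. MRPS17 held in 2 of 6 leave-one-out fits. Genes that share reads with processed pseudogenes, as ribosomal protein genes do, are uncertain under counting by gene symbol.

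Of the other mitochondrial genes, the respiratory chain gave 1 call each way among 39. This is 2.56% in each direction, against 3.66% of all genes in the Nrp1-IP and 0.646% in the DCC-IP direction. COX7B, a subunit of cytochrome c oxidase, had 107, 75.1 and 39.6 CPM in DCC-IP against 1095, 785 and 759 CPM in Nrp1-IP (log2 fold change 3.76, SE 0.38, adjusted p = 0.00121). NDUFA3, of complex I, had 98.0, 27 and 18.4 CPM in DCC-IP against 1.75, 2.93 and 1.78 CPM in Nrp1-IP (log2 fold change -4.17, SE 0.80, adjusted p = 0.0231), a call that held in 3 of 6 leave-one-out fits. Of the 16 tested genes of mitochondrial protein import 0 were called by edgeR, with 3 in the DCC-IP direction before adjustment and 2 by DESeq2. The one with the most counts, TOMM6, was at 117, 90.7 and 44.1 CPM in DCC-IP against 48.1, 70.0 and 56.1 CPM in Nrp1-IP (adjusted p = 0.815).

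Cytoskeletal genes were called by edgeR mostly on the Nrp1-IP side, where 85.0% of all calls lay. This balance did not hold for actin genes under another test. Among 35 microtubule genes other than MAP1B, 3 were called higher in Nrp1-IP and 0 in DCC-IP (3 in DCC-IP before adjustment, and 2 by DESeq2), and the median was 0.11 below that of all genes. PAFAH1B2 alone took 3.39% to 3.60% of Nrp1-IP counts and 0.504% to 0.802% of DCC-IP counts, while the rest of the list took 0.567% to 0.910% and 0.420% to 0.604%. DCX, or doublecortin, which stabilises microtubules in migrating neurons, was at 1717, 1924 and 1214 CPM in DCC-IP against 8792, 5158 and 6475 CPM in Nrp1-IP (log2 fold change 2.20, SE 0.29, adjusted p = 0.00385), and was not called with library sizes alone (adjusted p = 0.0525). Of 53 actin genes 7 were higher by the test in Nrp1-IP and 1, the formin DAAM1, in DCC-IP, with a median 0.25 above that of all genes that ranged from 0.06 below it to 0.35 above it over the 5 scalings. DESeq2 called 8 in each direction, and 8 in each passed before adjustment. Of the 7, ABLIM1 held in 2 of 6 leave-one-out fits and CDC42EP3 and PHACTR2 in 1 each. PARVB, or beta-parvin, which ties integrins to actin, was at 411, 238 and 242 CPM in DCC-IP against 2090.2, 2475 and 2221 CPM in Nrp1-IP (log2 fold change 3.11, SE 0.27, adjusted p = 0.000942). ARPC4, a subunit of the ARP2/3 complex, and NF2, or merlin, had log2 fold changes of 2.78 and 2.37. DAAM1 had 253, 97.3 and 393 CPM in DCC-IP against 30.2, 39.9 and 35.2 CPM in Nrp1-IP (log2 fold change -2.72, adjusted p = 0.036), and its call held in 1 of 6 leave-one-out fits, with adjusted p of 0.0508 to 0.21 in the other 5.

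Axon guidance genes, the family to which DCC and Nrp1 belong, had the highest median of all lists, 0.95 above that of all genes and 0.93 to 1.04 above it over the 5 scalings, with 1 of 23 called (4.35%, near the 3.66% of all genes). This was EFNA5, a ligand of Eph receptors, at 1169.6, 1779 and 1225 CPM in DCC-IP, against 4847, 6661 and 5401 CPM in Nrp1-IP and 6329, 7265 and 4334 CPM in Input (log2 fold change 2.12, SE 0.32, adjusted p = 0.00771), and it was not called with library sizes alone (adjusted p = 0.0769). Of the 23, 16 had a positive log2 fold change, against 3133 of all 6343. Before adjustment 5 passed in the Nrp1-IP direction and 1 in the DCC-IP direction, and DESeq2 called 4 and 0.

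Calls on the DCC-IP side were fewer. The lists with the largest numbers were chromatin regulators with 6 and the mTORC1 and kinetochore lists with 3 each, while 15 of the 41 were in no list. The 8 genes called in all 6 leave-one-out fits were FNIP1, ZFX, AKAP12, MGA, LIN54, SBNO1, CTNNB1 and DCUN1D4, and the same 8 were called under each of the 24 alternatives run. FNIP1, which binds folliculin and AMPK in nutrient signalling, stood at 4512, 4468 and 3694 CPM in DCC-IP, against 658, 679 and 655 CPM in Nrp1-IP and 2101, 1635 and 1027 CPM in Input (log2 fold change -2.54, SE 0.24, adjusted p = 0.00106). AKAP12, a scaffold that anchors protein kinases A and C, was at 1989, 1403 and 2199.7 CPM in DCC-IP, against 279, 280.4 and 224 CPM in Nrp1-IP and 912, 769.7 and 946 CPM in Input (log2 fold change -2.72, SE 0.32, adjusted p = 0.00217). Input lay between the receptors for both genes, and AKAP12 was the only call among 5 tested A-kinase anchoring proteins. CTNNB1, or beta-catenin, which joins cadherins to the actin skeleton and carries Wnt signals, was at 2855, 2065 and 897 CPM in DCC-IP, against 289, 269 and 238 CPM in Nrp1-IP and 982, 1014 and 854 CPM in Input (log2 fold change -2.67, SE 0.36, adjusted p = 0.00446). Its lowest DCC-IP library, replicate 3, lay within the Input range and about 3 times above the highest Nrp1-IP library. Within the list of adherens junction and spectrin genes CTNNB1 was the 1 call in this direction among 27 (4 before adjustment, and 4 by DESeq2), beside 3 in the other (5 and 4): CSNK1A1, a casein kinase that phosphorylates beta-catenin, AMER3, which belongs to a family of Wnt regulators, and MCC. Their log2 fold changes were 2.36, 2.41 and 1.94, and MCC held in 1 of 6 leave-one-out fits while CSNK1A1 lost its call without DCC-IP replicate 2 (adjusted p = 0.0633) and AMER3 without Nrp1-IP replicate 1 (0.0542) or with library sizes alone (0.0668).

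Chromatin regulators had 6 calls on the DCC-IP side (6.52%) against 4 on the Nrp1-IP side (4.35%) among 92, beside 0.646% and 3.66% of all genes, and 14 against 7 by DESeq2, with a median 0.46 below that of all genes and 0.45 to 0.56 below it over the 5 scalings. The 6 were ZFX, MGA, LIN54, INO80D, ARID2 and FAM60A, of which the first 3 held in all 6 leave-one-out fits, INO80D and ARID2 in 1 each and FAM60A in none, nor was FAM60A called with the replicate block. ZFX, a zinc finger transcription factor, had 4567, 6543 and 4889.8 CPM in DCC-IP, against 826, 689.6 and 565 CPM in Nrp1-IP and 1376, 1100.2 and 787 CPM in Input (log2 fold change -2.85, SE 0.32, adjusted p = 0.00188). MGA, a partner of MAX, was at 1002, 724 and 812 CPM in DCC-IP against 129, 167 and 133 CPM in Nrp1-IP (log2 fold change -2.42, SE 0.30, adjusted p = 0.00312). LIN54, the DNA-binding subunit of the DREAM complex that represses cell cycle genes, was at 1239, 428 and 1372 CPM in DCC-IP against 69.7, 71.4 and 84.9 CPM in Nrp1-IP (log2 fold change -3.62, SE 0.48, adjusted p = 0.00406). As in every called gene, the receptors did not overlap in these 3. LIN54 had 1 DCC-IP library, replicate 2, far below the other 2. The 4 on the Nrp1-IP side were the histone chaperone RBBP4 (log2 fold change 2.22, adjusted p = 0.00588), RBBP5, BRD3 and the heterochromatin protein CBX5, of which RBBP5 and CBX5 held in 3 of 6 leave-one-out fits and BRD3 in 2. Outside the list, SBNO1, a homolog of the fly gene strawberry notch, was the most abundant DCC-IP call, at 17124, 14467 and 8918 CPM in DCC-IP against 4099.9, 3508 and 3360.4 CPM in Nrp1-IP (log2 fold change -1.72, SE 0.23, adjusted p = 0.00446). DCUN1D4, which promotes neddylation of cullins, was at 5856, 3536 and 4307 CPM in DCC-IP against 1416, 1163 and 1021 CPM in Nrp1-IP (log2 fold change -1.78, adjusted p = 0.00482). The kinase TLK1, which acts on histone chaperones, was at 8673, 4423 and 4185 CPM in DCC-IP against 1471, 1642 and 1386 CPM in Nrp1-IP, and its call was lost without Nrp1-IP replicate 1 (adjusted p = 0.0542), as was that of GOLIM4 (0.0527).

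Among neurodevelopmental transcription factors edgeR called 4 of 28 higher in Nrp1-IP (TP73, ETV6, TLE3 and FOXP1) and 1, RREB1, in DCC-IP. These are 14.3% and 3.57%, against 3.66% and 0.646% of all genes, whereas 5 and 9 passed before adjustment and DESeq2 called 3 and 6. TLE3 and FOXP1 held in 1 of 6 leave-one-out fits each and RREB1 in 2. The median of the list was 0.45 below that of all genes. Summed over the family, they took 4.86% to 5.70% of DCC-IP counts and 2.55% to 2.61% of Nrp1-IP counts, of which NFIB, the member with the most counts, gave 1.41% to 1.83% and 0.893% to 0.967%. TP73, of the p53 family, was at 46.7, 51.4 and 32.0 CPM in DCC-IP against 292, 298 and 223 CPM in Nrp1-IP (log2 fold change 2.78, SE 0.39, adjusted p = 0.00491). Of 228 ZNF zinc finger genes 5 were called on the Nrp1-IP side (2.19%) and 1 on the DCC-IP side (0.439%), against 3.66% and 0.646% of all tested genes, whereas 10 and 14 passed before adjustment and DESeq2 called 5 and 10. Of the 5, ZNF252P, ZNF829, ZNF121 and ZNF132 held in 1 of 6 leave-one-out fits each. ZNF286A held in all 6 and had the smallest p among the 5 (log2 fold change 2.26, adjusted p = 0.00178). The DCC-IP call, ZNF532, held in 2 of 6.

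Of 38 hnRNP and SR proteins, which direct splicing, HNRNPH1 and TRA2A were called higher in DCC-IP (5.26%, against 0.646% of all genes). SRSF6 was called higher in Nrp1-IP (2.63%, against 3.66%). Before adjustment 9 passed in DCC-IP and 1 in Nrp1-IP. TRA2A held in 1 of 6 leave-one-out fits. HNRNPH1 stood at 10230.5, 6667 and 6959 CPM in DCC-IP, against 2059, 3263 and 2003 CPM in Nrp1-IP and 17660.1, 18547 and 14579 CPM in Input (log2 fold change -1.54, SE 0.28, adjusted p = 0.0177), so that both pulldowns lay below the whole lysate. Its call was lost without Nrp1-IP replicate 1 (adjusted p = 0.115) or 3 (0.099). SRSF6 was called in none of the 6 leave-one-out fits and not with MAP1B kept (adjusted p = 0.14). The whole family took 2.73% to 3.19% of DCC-IP counts and 1.14% to 1.20% of Nrp1-IP counts, with a median 0.55 below that of all genes, and DESeq2 called 9 higher in DCC-IP and 0 in Nrp1-IP. Of 39 Argonaute and RNA granule genes AGO1, which carries microRNAs, and RQCD1, a subunit of the CCR4-NOT deadenylase, were called higher in Nrp1-IP (5.13%, against 3.66% of all genes) and 0 in DCC-IP. Before adjustment 4 passed in the Nrp1-IP direction and 5 in the other, and DESeq2 called 3 and 4. AGO1 had 1407, 796 and 849 CPM in DCC-IP against 4628, 3737 and 3622 CPM in Nrp1-IP (log2 fold change 2.14, SE 0.24, adjusted p = 0.00192), and RQCD1 held in 1 of 6 leave-one-out fits.

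YWHAE, the epsilon member of the 14-3-3 proteins that bind phosphorylated partners, was the 1 call among 5 tested members. It stood at 5323, 4193 and 6139 CPM in DCC-IP, against 2127, 2245 and 1965 CPM in Nrp1-IP and 43471, 37306 and 37594 CPM in Input (log2 fold change -1.19, SE 0.27, adjusted p = 0.0468). Both pulldowns were far below the lysate, and the call was lost in 5 of 6 leave-one-out fits, at adjusted p of 0.0502 and 0.0601 without DCC-IP replicate 1 or 3 and 0.187 to 0.236 without any 1 Nrp1-IP library.

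Genes of cell division gave 3 calls each way among 35 tested kinetochore and segregation genes. This is 8.57% in each direction, against 3.66% of all genes in the Nrp1-IP and 0.646% in the DCC-IP direction. Before adjustment 6 passed in Nrp1-IP and 7 in DCC-IP, and DESeq2 called 6 and 5. SKA2, of the complex that couples kinetochores to microtubules, was at 1055, 887 and 785 CPM in DCC-IP against 4569, 5639 and 5108 CPM in Nrp1-IP (log2 fold change 2.64, SE 0.24, adjusted p = 0.00097), and BIRC5 and SPC24 were the others on that side. The DCC-IP calls SASS6, PCNT and CENPF, a centriole, a centrosome and a kinetochore protein, had log2 fold changes of -4.22, -2.30 and -2.38. Their DCC-IP libraries spread widely, for SASS6 at 218, 102 and 839 CPM against 13.1, 21.4 and 26.6 CPM in Nrp1-IP, and none of the 3 was called without Nrp1-IP replicate 1 (adjusted p of 0.182 to 0.26). SASS6 in Input was at 30.9, 39.1 and 152 CPM, so that replicate 3 was its highest library in each group. Of 45 nuclear transport genes NUTF2 and NUP43 were called higher in Nrp1-IP (4.44%, near the 3.66% of all genes) and 0 in DCC-IP. Before adjustment 3 of the 45 passed in each direction, and DESeq2 called 2 in each. Of 48 chaperones 5 were called higher in Nrp1-IP and 0 in DCC-IP (6 and 4 before adjustment, and 5 and 3 by DESeq2), with FKBP9, an ER prolyl isomerase with a near-identical copy in the genome that makes its count uncertain, at 1725, 726 and 1046 CPM in DCC-IP against 8206, 11951 and 8632 CPM in Nrp1-IP. Of the 5, BAG4 and DNAJC3 held in 3 of 6 leave-one-out fits each, HSPB9 in 2 and DNAJC18 in 1.

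Small nucleolar RNAs had the lowest median of the lists, 1.69 below that of all genes and 1.53 to 1.75 below it over the 5 scalings, with 20 of 22 tested members below 0, and 1 was called in each direction by edgeR, but 1 in Nrp1-IP and 5 in DCC-IP passed before adjustment and by DESeq2. SNORD99 was called higher in DCC-IP, at 72.6, 22.1 and 44.3 CPM against 2.34, 5.96 and 2.71 CPM in Nrp1-IP (log2 fold change -3.44, SE 0.74, adjusted p = 0.0379), and SNHG12, which hosts it, at 97.7, 79.7 and 104 CPM in DCC-IP against 7.24, 20.3 and 13 CPM in Nrp1-IP (log2 fold change -2.66, adjusted p = 0.0382). Each of these calls held in 1 of 6 leave-one-out fits, and reads of a small nucleolar RNA cannot be told apart from those of its host transcript. Of 692 clone-named transcripts 27 were called higher in Nrp1-IP (3.90%) and 1 in DCC-IP (0.145%), close to the 3.66% of all genes in the first direction (76 and 34 before adjustment, and 54 and 30 by DESeq2). RP11-746M1.1 was the most abundant, at 4641, 2716 and 4337 CPM in DCC-IP against 17124, 18849 and 16638 CPM in Nrp1-IP. Whether it shares reads with USP22 was not tested.

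**Figure D5:**
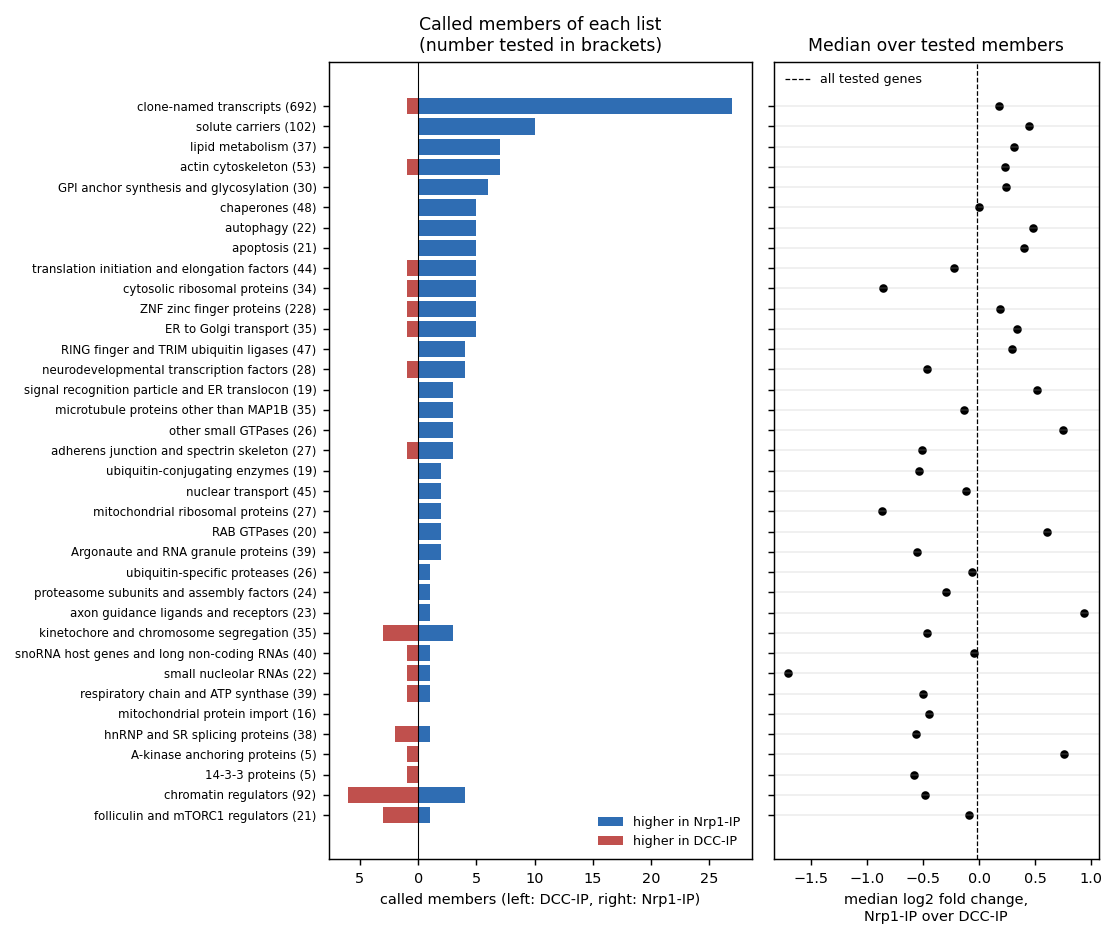
Left, number of called members of each gene list (red, higher in DCC-IP; blue, higher in Nrp1-IP; number tested in brackets); right, median log2 fold change of the tested members, with the median of all tested genes dashed. Blue bars are longer for most lists, chromatin regulators have 6 red against 4 blue, and the lowest median is that of the small nucleolar RNAs.

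Of the 232 Nrp1-IP calls 133 were members of at least 1 list, and of the 41 DCC-IP calls 26 were. Of the 232, 6 were at 0 in every DCC-IP library and 1 of the 41 at 0 in every Nrp1-IP library. With these at the bound that 3 counts per library allows, the median log2 fold changes remained 2.51 and -2.54.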

How the data were processed

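RNA of the 9 libraries was reverse-transcribed and amplified with a single-cell PCR method, then sequenced; no molecular identifiers are described. The submitters' processing notes name HISAT2 2.1.0, HTSeq 0.11.0 and the build hg19; the annotation and strand setting are not given in the sources used here. The authors deposited raw counts per gene symbol, with no normalization, and 29.2% to 31.3% of reads in the 6 pulldowns fell on genes. Groups came from the labels.

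Here Nrp1-IP was compared with DCC-IP in edgeR 4.0.16 (R 4.3.3) after MAP1B was removed: filterByExpr with a minimum count of 10, TMM, glmQLFit and glmQLFTest, and Benjamini-Hochberg adjusted p under 0.05. SE is the log2 fold change divided by the square root of F. Genes were named as the 12 with the smallest p and the 5 most abundant calls in each direction, up to 3 calls per list and direction (or the most abundant member), the receptors, calls that MAP1B removal changed, CTNNB1 and HNRNPH1; for counts of 10 or fewer all were sometimes named. Members, gene lists and rules were chosen with earlier results of these data known. The script was tested on simulated data. Gene types came from RefSeq (GRCh38.p14), names only. Alternatives covered scaling, filters, other tests, all 9 libraries, the replicate block, protein-coding genes and each library left out; the scaling factors of the full table and the TMM references were added after seeing the data.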

Additional observations from a re-analysis of the deposited data

Results flagged for a closer look

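MAP1B, which was left out of the comparison, took 47.4% of the gene counts in DCC-IP (mean of 3 libraries, SD 6.20) against 2.1% in Nrp1-IP and 2.1% in Input (SD 0.460 and 0.206, n = 3 each). It is given here as a signal outside the comparison that exceeded its level in the whole lysate.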

How the results depend on the processing

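Under the 24 alternatives no named gene reversed. The counts as reported were 232 for Nrp1-IP and 41 for DCC-IP. Counts that moved by more than 1.5 times were, for Nrp1-IP, 106 with library size only and 390 with DESeq2, and for DCC-IP, 70 with MAP1B kept, 337 with library size only, 178 with no filter, 134 with 10 counts in every library, 313 with DESeq2, 103 with edgeR's exact test, 68 with the scaling factors of the table with MAP1B and 69 with DCC-IP replicate 1 as TMM reference. Leaving out 1 library gave 108 to 226 and 8 to 68. The share of calls on the Nrp1-IP side, 85.0%, was 23.9% with library size only, 55.5% with DESeq2, 63.0% with no filter and 70.5% with 10 counts in every library. The 68 and 69 came from the scaling factors or their reference alone, on the table without MAP1B; the cause of the other moves was not tested. Same-numbered libraries deviated together at r = 0.11, 0.09 and 0.37 (Pearson, across genes), each the best match of its DCC-IP library, but 1 of 3 was under 0.1, so the numbers were not taken as pairs. With the replicate block the counts were 287 and 45, which included 223 of the 232 and 33 of the 41. The DCC-IP calls KPTN, RPS13, SNORD99 and TRA2A were among those not made with the block. Few calls were made among rare transcripts, 5 of 2945 tested genes at 1 to 10 CPM; the part of depth in this was not tested.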
